A study of Homo sapiens with 12 samples.

Results

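The cytosolic ribosomal protein genes were taken from the deposited count table by name, as protein-coding genes outside the Y chromosome whose symbol is RPL or RPS followed by a number, together with RPLP0, RPLP1, RPLP2 and RPSA. The rule found 84 of 58735 genes. Of these, 46 encode proteins of the large subunit, 31 encode proteins of the small subunit and 7 are paralogues of another member (RPL3L, RPL7L1, RPL10L, RPL22L1, RPL26L1, RPL39L and RPS27L). Counts were present in all 12 libraries for 82 members, and the same 82 passed the filter on low counts and were tested. RPL39L and RPL10L were at 0 counts in all 12 libraries, where 3 counts correspond to 0.117 to 0.167 CPM by the plain library total. Elsewhere CPM is a count relative to the TMM-adjusted total of its library.

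The 12 libraries came from HepG2 cells, an established human hepatocellular cancer line, grown in serum-containing medium. Control cells (n = 3) received vehicle, NOB cells (n = 3) nobiletin at 5 µM, SOR cells (n = 3) sorafenib at 2 µM, and SOR+NOB cells (n = 3) both compounds at these doses. Nobiletin is a polymethoxylated flavone of citrus peel, and sorafenib is an inhibitor of several kinases that is used against liver cancer. The length of treatment is not given in the sources used here, all libraries are of 1 cell line, and nothing says whether the replicates were separate cultures, so p-values measure only the spread between these libraries.

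Ribosomal proteins assemble in the nucleolus with ribosomal RNA into the large and the small ribosomal subunit, and a cell makes nearly all of them in matched amounts. Their mRNAs are short, abundant and long-lived, and most begin with a run of pyrimidines, the oligopyrimidine start. Through this start mTORC1 and the binding protein LARP1 control the translation of these mRNAs. A few members have paralogues that can take their place in the ribosome or act outside it, and free RPL5 and RPL11 bind MDM2 when assembly is disturbed.

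The runs of pyrimidines could be read for the members in RefSeq's list of gene starts (GRCh38.p14), which held 67 of the 84 members. A run of at least 8 pyrimidines that lay within 5 bases of a listed start was found in 50 of the 67 members (74.6%), against 13.7% of all 27305 genes listed. It was found in 49 of 62 subunit members and in 1 of 5 paralogues, which was RPL22L1. The starts of RPS6 and RPLP2 are shown as the usual form, those of RPL22 and RPL22L1, RPL26 and RPL26L1, and RPS27 and RPS27L as parent and paralogue, and those of RPL7L1, RPS26, RPS7 and RPS19 because their levels are given for each library. Each is 40 bases, with the listed start at base 21, and the run is in capitals.
RPS6, chr9:19380217-19380256, minus strand: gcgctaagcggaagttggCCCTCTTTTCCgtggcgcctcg
RPLP2, chr11:809947-809986, plus strand: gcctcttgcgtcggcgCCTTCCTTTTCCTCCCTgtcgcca
RPL22, chr1:6199576-6199615, minus strand: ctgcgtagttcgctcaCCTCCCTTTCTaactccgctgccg
RPL22L1, chr3:170870176-170870215, minus strand: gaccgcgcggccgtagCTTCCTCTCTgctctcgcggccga
RPL26, chr17:8383174-8383213, minus strand: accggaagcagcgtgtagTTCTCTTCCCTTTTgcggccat
RPL26L1, chr5:172958709-172958748, plus strand: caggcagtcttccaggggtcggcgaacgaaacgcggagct
RPS27, chr1:153990742-153990781, plus strand: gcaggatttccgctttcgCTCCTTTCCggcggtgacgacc
RPS27L, chr15:63157458-63157497, minus strand: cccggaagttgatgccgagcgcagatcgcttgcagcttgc
RPL7L1, chr6:42879596-42879635, plus strand: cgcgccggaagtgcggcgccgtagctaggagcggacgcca
RPS26, chr12:56041898-56041937, plus strand: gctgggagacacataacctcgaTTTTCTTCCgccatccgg
RPS7, chr2:3575240-3575279, plus strand: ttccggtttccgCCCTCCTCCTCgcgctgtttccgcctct
RPS19, chr19:41860235-41860274, plus strand: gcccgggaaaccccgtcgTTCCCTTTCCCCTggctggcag
RPL26L1, RPS27L and RPL7L1 hold no such run in these windows, whereas RPL22L1 and its parent RPL22 both do. In the window from 250 bases before to 50 after the start, and on both strands, the letters CCGGAAG occurred in 35.8% of the members and 12.2% of all genes, CTTTCC in 46.3% and 30.2%, GGGCGG in 58.2% and 48.3%, and TATAAA in 10.4% and 13.99%. These are matches of letters and not measured binding.

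Total counts were 17945656 to 25669823 per library. The hepatocyte markers ALB, AFP, APOA1, APOB, TTR, SERPINA1, HNF4A, TF and FGB summed to 27508 to 82218 CPM. Markers of bile duct cells summed to 236 to 401 CPM (2 of 3 with counts, KRT7 at 0), those of endothelial cells to 5.36 to 17.1 CPM (3 of 4, KDR at 0), those of stellate cells or fibroblasts to 2.17 to 24.7 CPM (4 of 4), those of leukocytes to 0.220 to 1.63 CPM (3 of 4, CD3E at 0) and those of red cells to 0 to 0.543 CPM (1 of 3, HBB at 0). In Control and SOR+NOB, the bile duct markers were at 392 to 401 and 236 to 239 CPM, the endothelial ones at 12.2 to 15.8 and 5.36 to 7.48 CPM, and the stellate ones at 23.02 to 24.7 and 2.17 to 3.19 CPM. Where these lists moved with the groups, their part in the results was not tested. No pair of replicates agreed within sampling noise. Replicate 1 of SOR+NOB stood apart from the other libraries of its group. A chi-square of the members' counts, divided by its degrees of freedom, was 217 between this library and replicate 2 and 132 between it and replicate 3, while the other 10 pairs of replicates gave 5.13 to 30.1. Over all genes the values were 24.6 and 17.3, against 2.69 to 5.26 in the other 10 pairs, so the difference was not limited to the members. This library also had the lowest total and the fewest genes with a count, 20138 against 22542 to 25014. In it, 56 of the 82 members were lower than in both other replicates and 13 were higher than in both. The log2 difference to the other replicates had a median of −0.17 over the 82 members and −0.27 over the 56, and 11 were lower by more than 0.5. Over all genes tested its median was −0.01 and its SD 0.68, against an SD of 0.27 over the members. The deviations of RPL26 (−1.24), RPL36 (−1.03) and RPL8 (−0.74) were the largest, and those of RPS6 and RPS19 were small. Replicate 2 of SOR+NOB was the highest of the 12 libraries in 50 members, and replicate 1 was the lowest in 27. The results that follow are given without replicate 1 of SOR+NOB where that changes them. Fits without replicate 2 are given only for the medians against Control and SOR and within the ranges at the end.

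**Figure D1:**
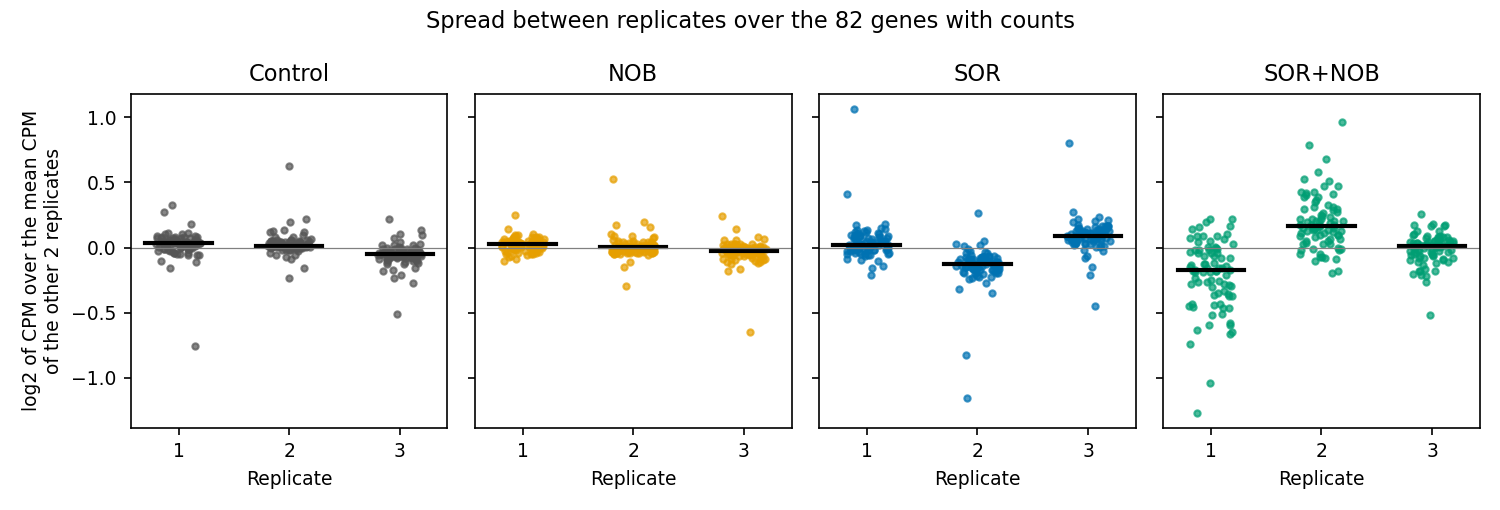
For each of the 82 members with counts (points), the log2 ratio of its CPM in a replicate to the mean CPM of the other 2 replicates is plotted by replicate and group, with the median as a black bar. The points lie close to 0 in Control and NOB, and in SOR+NOB replicate 1 they spread downwards, with a median of −0.17.

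In Control, the 72 subunit members that do not share most of their mRNA with another gene ranged from 47.9 to 3100 CPM per kilobase of mRNA, with a median of 944. The lowest was RPL37, whose annotated transcript taken as the mRNA has 7686 bases, 291 of them coding. Transcripts of 4916, 3647 and 3437 bases were taken for RPL27A, RPL37A and RPS23, so the low end depends on the transcript chosen. On that scale RPL13, a large subunit protein, was highest at 3100 ± 62.3 (SD, n = 3), followed by RPS18 at 1896 ± 14.3 and RPL29 at 1695 ± 45.5, gaps that exceed their spread. RPL29 and RPS27 (1663 ± 82.4) were not separated beyond their spread. The authors' FPKM, which divides by all exon bases of a gene, put RPS12 first at 1043 ± 33.6 and RPL13A next at 811 ± 7.49. The counted length of a member was 3.50 times that of its mRNA at the median. The orders on the 2 scales had a Spearman rho of 0.69 over these 72 genes, so the rank of a member depends on the length used.

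At least 50% of the mRNA lies in exons of another gene on the same strand in 5 members, among them RPL17 (91.0%), RPS10 (84.0%), RPL36A (77.6%) and RPL26 (65.3%). All 5 had low counts, with 2.59 ± 0.506 CPM (SD, n = 3) for RPS10 and 11.05 ± 1.33 CPM for RPL17 in Control. The overlapping read-through genes RPL17-C18orf32, RPS10-NUDT3 and RPL36A-HNRNPH2 had 31, 7 and 5 counts over all 12 libraries. In RPS10, 1429 of the 2358 exon bases belong to it alone and 94 of these are in the mRNA. How reads in shared exons were assigned is not given, so the values of these 5 genes are uncertain. Reads were also assigned to 524 ribosomal protein pseudogenes, which held 0.230% to 0.282% of the counts of a library, and the pseudogenes of RPS28 and RPL9 held 79.6% and 61.8% of the counts of gene and pseudogenes together.

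The members together took 5.46%, 5.54% and 5.40% of all counts in Control and 5.97%, 5.86% and 5.83% in NOB. In SOR they took 5.49%, 5.20% and 5.55%. In SOR+NOB they took 5.59%, 6.65% and 6.21%. Every NOB and every SOR+NOB library was above every Control library, and SOR and Control overlapped. The mean was 5.47 ± 0.0691% in Control, 5.89 ± 0.0741% in NOB, 5.41 ± 0.188% in SOR and 6.15 ± 0.533% in SOR+NOB (SD, n = 3). The exact two-sided permutation test gave p = 0.1 for NOB and for SOR+NOB against Control and for SOR+NOB against SOR, the smallest value that 3 against 3 libraries allow, and p = 0.9 for SOR against Control (adjusted p = 0.18 and 0.9 over 18 tests). The small subunit members went from 1.97 ± 0.0273% in Control to 2.31 ± 0.168% in SOR+NOB without overlap, and the large subunit members from 3.47 ± 0.0417% to 3.81 ± 0.367% with overlap. The overlap came from replicate 1 of SOR+NOB at 3.42%, and replicates 2 and 3, at 4.14% and 3.87%, were above the highest Control library (3.51%). Without replicate 1 the difference of the large subunit means was 0.54 percentage points in place of 0.34. The positions of SOR and SOR+NOB depended on what was in the total. Over protein-coding nuclear genes, SOR+NOB replicate 1 (6.18%) was just below the highest Control library (6.19%), and without the 50 most abundant other genes it was at 7.17% against 7.06% to 7.27% in Control. Without those 50 genes the mean share was 7.19% in Control, 7.47% in NOB, 7.50% in SOR and 7.76% in SOR+NOB, which places SOR above Control, whereas over all counts it was below. The mean of NOB was above that of Control on both totals, and by less without those 50 genes. The summed hepatocyte markers were at 42735 to 44824 CPM in Control and 79089 to 82218 CPM in SOR. They were at 27508 to 28198 CPM in NOB and 30003 to 33118 CPM in SOR+NOB, the 2 groups with the higher shares over all counts. The mitochondrial genome took 8.22%, 9.49%, 10.7% and 6.81% of the counts in Control, NOB, SOR and SOR+NOB. The part of either in the shares was not tested.

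**Figure D2:**
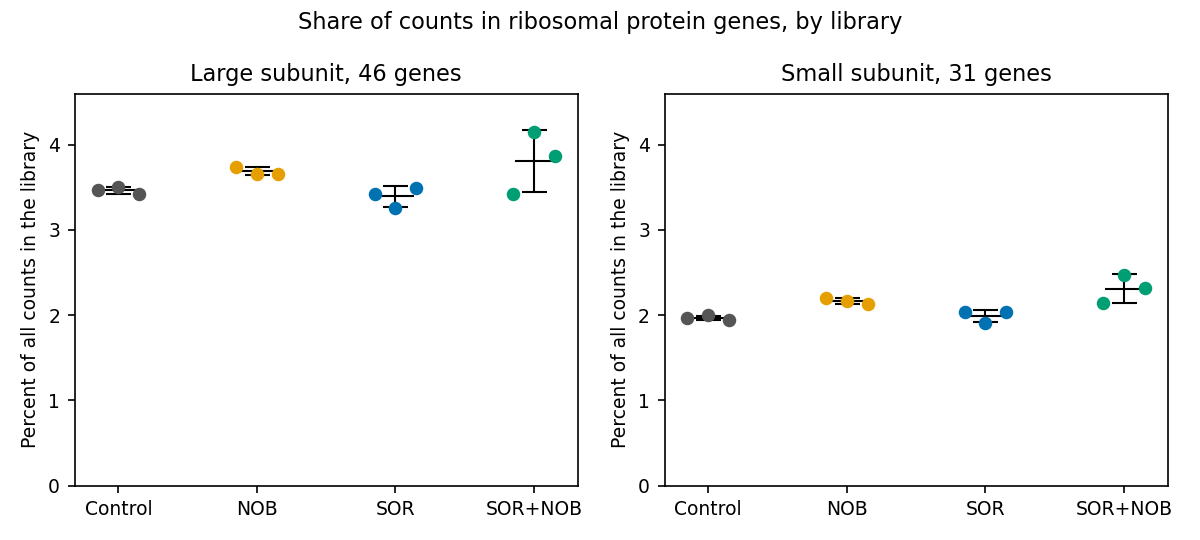
The percent of all counts in large subunit (left) and small subunit genes (right) is plotted for each library (points), with the mean and SD of each group (n = 3). NOB lies above Control in both panels, and the 3 SOR+NOB libraries spread more widely than those of any other group.

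Fold changes of the members were small in all comparisons. Against Control, 78 of the 82 tested members lay within 1.2-fold in NOB, 69 in SOR and 60 in SOR+NOB. The SD of their log2 fold changes was 0.15, 0.17 and 0.38, against 0.70, 0.80 and 1.25 over all 17115 genes tested. Their median log2 fold change was 0.01 in NOB, 0.07 in SOR and 0.12 in SOR+NOB, where that of all genes was 0.01, 0.00 and −0.02. Leaving out single libraries gave medians of 0.04 to 0.11 in SOR and 0.05 to 0.17 in SOR+NOB. In SOR+NOB the highest median came without its replicate 1 and the lowest without its replicate 2. In the F-test of edgeR's quasi-likelihood model for any difference among the 4 groups, 48 members passed an adjusted p under 0.05 (58.5%), where 78.5% of all genes did.

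**Figure D3:**
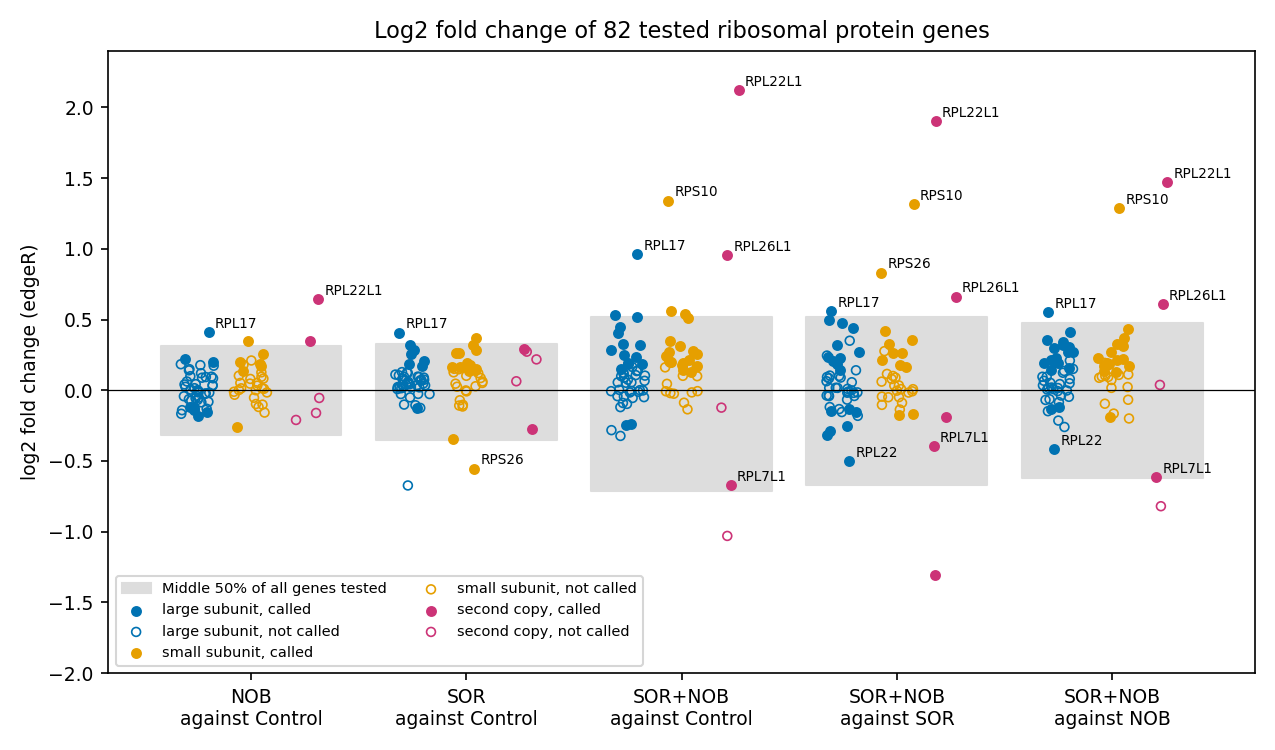
Log2 fold changes (edgeR) of the 82 tested members in 5 comparisons, by class (colours), with filled points for members called at an adjusted p under 0.05 and grey bands for the middle 50% of all genes tested. Most points lie inside the grey bands, and RPL22L1 stands highest in each SOR+NOB comparison, at 2.12, 1.90 and 1.47.

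RPL22L1, the paralogue of RPL22 that can take its place in the ribosome, was the member that moved most. Its level was 13.2, 11.7 and 11.6 CPM in Control, 18.9, 20.02 and 18.4 CPM in NOB, 14.05, 12.4 and 16.0 CPM in SOR, and 58.5, 52.5 and 48.1 CPM in SOR+NOB. The 3 SOR+NOB libraries were above all others, the NOB libraries were above Control and SOR, and SOR overlapped Control. In edgeR's quasi-likelihood test with Benjamini-Hochberg adjustment over all genes, it rose by 2.12 ± 0.10 (log2, SE) in SOR+NOB against Control (adjusted p = 9.4e-14) and by 0.65 ± 0.11 in NOB (adjusted p = 3.97e-05). SOR gave 0.22 ± 0.11 (adjusted p = 0.122). The gene lies on the minus strand of chromosome 3 at 170864875 to 170870483 (GRCh38) and has no annotated pseudogene in the table.

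RPL22, an RNA-binding protein of the large subunit, moved the other way when both compounds were given. Its level was 163, 157 and 153 CPM in Control, 169, 181 and 184 CPM in NOB, 195, 174 and 196 CPM in SOR, and 107, 156 and 136 CPM in SOR+NOB. NOB and SOR libraries were all above Control, and SOR+NOB was below both single treatments without overlap but overlapped Control. RPL22 fell by 0.50 ± 0.09 (log2, SE) in SOR+NOB against SOR (edgeR adjusted p = 0.000118) and by 0.42 ± 0.09 against NOB (adjusted p = 0.000688), and the first of these was −0.37 without SOR+NOB replicate 1. Against Control it was −0.24 ± 0.09 (edgeR adjusted p = 0.0299), and this call was lost without that replicate (−0.11, adjusted p = 0.0615). RPL22L1 stood at 7.73 ± 0.370% of the CPM of RPL22 in Control, 10.7 ± 0.635% in NOB, 7.51 ± 0.561% in SOR and 41.2 ± 11.6% in SOR+NOB (SD, n = 3). The SOR+NOB libraries gave 54.5%, 33.6% and 35.4%, so the highest ratio came from the replicate that stood apart, and the other 2 were still above every library of the other groups.

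RPL26L1, the paralogue of RPL26, rose under each treatment. It was at 12.4, 10.7 and 12.7 CPM in Control, 14.9, 14.4 and 16.2 CPM in NOB, 13.6, 14.7 and 15.6 CPM in SOR, and 21.8, 25.2 and 22.3 CPM in SOR+NOB. No treated library overlapped Control, and SOR+NOB was above all others. The log2 changes were 0.35 ± 0.11, 0.29 ± 0.11 and 0.95 ± 0.11 (edgeR adjusted p = 0.0157, 0.0405 and 9.12e-08). The parent, RPL26, shares exons and gave no call, with log2 values of −0.06 ± 0.38, −0.67 ± 0.39 and −0.32 ± 0.39. The call of RPL26L1 in SOR was lost in 7 of 24 alternatives.

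RPL7L1, a paralogue of RPL7 found in precursors of the large subunit, fell with sorafenib and further with both compounds. Its level was 229, 217 and 219 CPM in Control, 209.6, 209 and 221 CPM in NOB, 191, 174 and 185 CPM in SOR, and 144, 139 and 136 CPM in SOR+NOB. The SOR libraries were below all Control and NOB libraries, and SOR+NOB was below SOR. It fell by 0.28 ± 0.05 (log2, SE) in SOR (edgeR adjusted p = 0.000193) and by 0.67 ± 0.05 in SOR+NOB (adjusted p = 2.98e-10), while NOB gave −0.05 ± 0.05 (adjusted p = 0.45). RPL7 itself gave −0.04 ± 0.05, 0.05 ± 0.05 and 0.10 ± 0.05 in the 3 comparisons against Control, none of them called, the last called at 0.14 ± 0.04 without SOR+NOB replicate 1, and RPL7L1 went from 33.0 ± 1.19% of the CPM of RPL7 in Control to 19.4 ± 1.64% in SOR+NOB.

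The other paralogues gave fewer calls. RPS27L, the paralogue of RPS27, had 80.8 ± 6.75 CPM in Control and 74.3 ± 4.91 CPM in SOR+NOB (SD, n = 3) and no call against Control, and RPS27 had none in any comparison. Without SOR+NOB replicate 1, RPS27L was called lower in SOR+NOB (−0.18 ± 0.06) and in NOB (−0.16 ± 0.06). RPL3L, the form of RPL3 in striated muscle, was at 0.408 to 1.83 CPM in all libraries, and its single call was −1.30 ± 0.46 in SOR+NOB against SOR (edgeR adjusted p = 0.0178). RPL3 rose by 0.21 ± 0.05 in SOR (adjusted p = 0.00158) and fell by 0.25 ± 0.05 in SOR+NOB against SOR (adjusted p = 0.000142). RPL10 and RPL39 gave no call, and their paralogues had no counts to test. RPL10 (0.10 ± 0.04) and RPL39 (0.26 ± 0.09) were called higher in SOR+NOB against Control when its replicate 1 was left out.

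**Figure D4:**
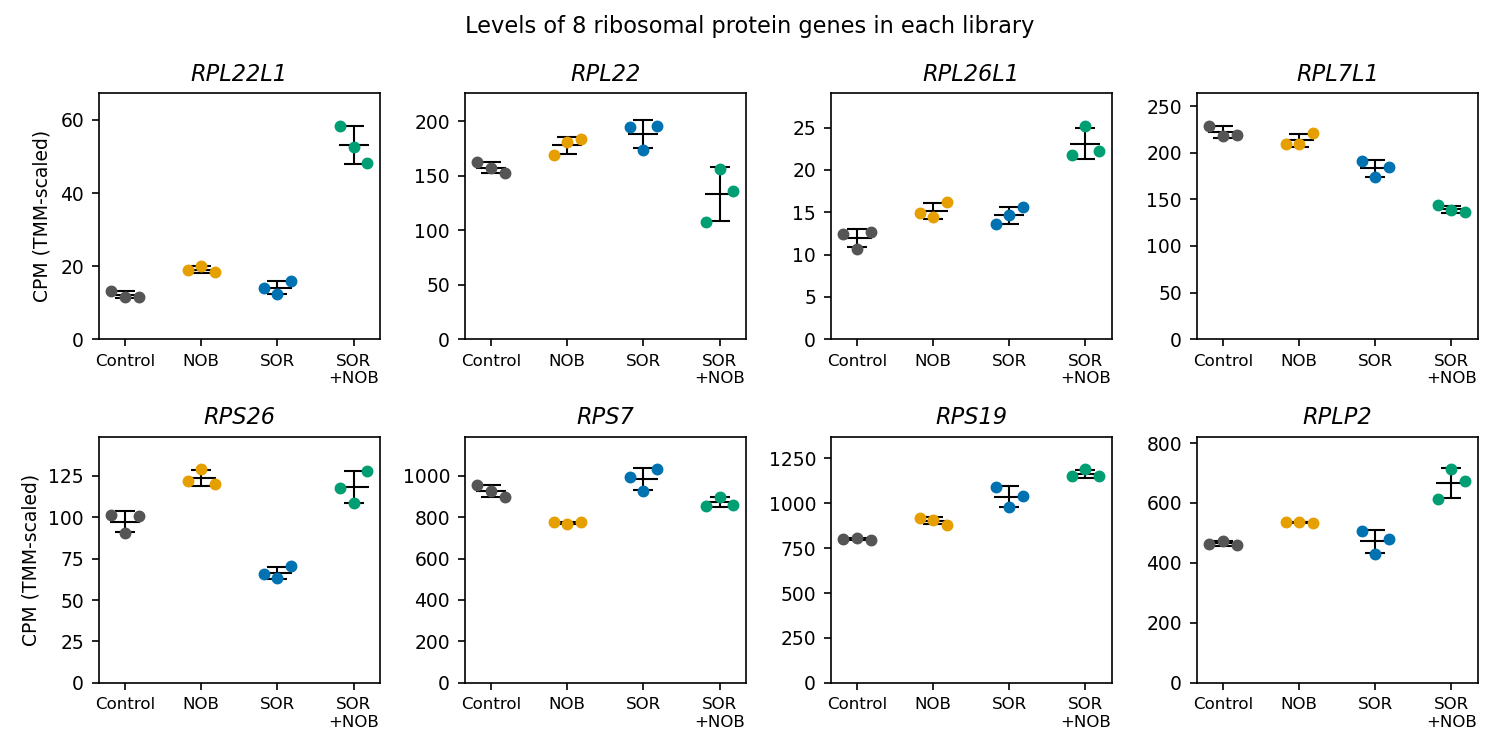
CPM of 8 members in each library (points), with the mean and SD of each group (n = 3) and an axis from 0 for each gene. RPL22L1 is high in SOR+NOB alone, RPL7L1 steps down from SOR to SOR+NOB, RPS26 is low in SOR, and RPS7 is lowest in NOB.

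Nobiletin alone raised 11 members and lowered 6 of 82, where 18.9% of all genes were called higher, 19.2% lower and 38.2% either way. The NOB and Control libraries did not overlap in 44 members, against 54.9% of all genes. The rises after RPL22L1 were RPL17 (0.41 ± 0.16, log2 and SE), RPL26L1, RPS26 (0.35 ± 0.07) and RPSA (0.25 ± 0.05), and the falls were led by RPS7 (−0.26 ± 0.05), RPL9 (−0.18 ± 0.06) and RPL29 (−0.16 ± 0.06). A single called member, RPL22L1, passed 1.5-fold, against 16.8% of all genes. With only the NOB and Control libraries in the fit, 28 members were higher and 18 lower (51.8% of 16070 genes were called there), and 24 and 11 without SOR+NOB replicate 1 (44.6% of all genes).

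RPS7, a small subunit protein that also binds MDM2, was at 957, 924 and 898 CPM in Control, 777, 766 and 775 CPM in NOB, 991, 927 and 1032 CPM in SOR, and 855, 899 and 860.5 CPM in SOR+NOB. All NOB libraries were below those of every other group. The fall in NOB was 0.26 ± 0.05 on the log2 scale (edgeR adjusted p = 0.000143), and SOR against NOB gave a rise of 0.35 ± 0.05 (adjusted p = 3.55e-06). RPSA, a small subunit protein related to the laminin receptor, was at 744, 721 and 692 CPM in Control, 863, 862 and 847 CPM in NOB, 875, 877 and 934 CPM in SOR, and 963, 916 and 871 CPM in SOR+NOB. Every treated library was above Control, with log2 changes of 0.25 ± 0.05, 0.32 ± 0.05 and 0.35 ± 0.05 (edgeR adjusted p = 0.000236, 1.65e-05 and 1.91e-06). RPSA pseudogenes held 12.9% of the counts of gene and pseudogenes together.

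Sorafenib alone raised 20 members and lowered 4 of 82, where 21.7% of all genes were called higher, 19.3% lower and 41.0% either way. The SOR and Control libraries did not overlap in 33 members, against 55.9% of all genes. Small subunit members made up 12 of the rises among 31 tested, and large subunit members 7 among 46. The largest were RPL17 (0.41 ± 0.16), RPS19 (0.37 ± 0.05), RPSA (0.32 ± 0.05) and RPL21 (0.32 ± 0.07), and the falls were RPS26 (−0.55 ± 0.07), RPS29 (−0.35 ± 0.08), RPL7L1 (−0.28 ± 0.05) and RPL10A (−0.12 ± 0.05). No called member other than RPS26 fell below −0.50, and the count of called members past 1.5-fold was 0, against 19.4% of all genes. Without SOR+NOB replicate 1 in the shared fit, 35 members were higher and 4 lower, where 47.3% of all genes were called.

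RPS26, a small subunit protein at the exit channel of the mRNA, was the member on which the 2 compounds moved in opposite directions most strongly. It was at 101, 90.4 and 101 CPM in Control, 122, 129 and 120.3 CPM in NOB, 65.5, 63.2 and 70.4 CPM in SOR, and 118, 109 and 128 CPM in SOR+NOB. SOR was below all other libraries, and NOB and SOR+NOB were above Control and overlapped each other. It rose by 0.35 ± 0.07 (log2, SE) in NOB (edgeR adjusted p = 0.00027) and fell by 0.55 ± 0.07 in SOR (adjusted p = 8.48e-07). SOR+NOB against SOR gave a rise of 0.83 ± 0.07 (adjusted p = 6.06e-10), and SOR+NOB against NOB −0.07 ± 0.07 (adjusted p = 0.402). These calls held in 24 of 24 alternatives for NOB and for SOR against Control, and its 30 pseudogenes held 1.09% of the counts of the family.

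RPS19, a small subunit protein mutated in Diamond-Blackfan anaemia, was at 802, 808 and 798 CPM in Control, 920.1, 908 and 880.1 CPM in NOB, 1093, 978 and 1038 CPM in SOR, and 1152, 1190 and 1150 CPM in SOR+NOB. The 4 groups did not overlap and followed the order Control, NOB, SOR and SOR+NOB. The log2 changes against Control were 0.17 ± 0.05, 0.37 ± 0.05 and 0.54 ± 0.05 (edgeR adjusted p = 0.00635, 1.26e-06 and 1.71e-09). The interaction, in which the change from Control to NOB is subtracted from the change from SOR to SOR+NOB, was −0.00 ± 0.07 (adjusted p = 0.981).

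With both compounds, 35 members rose and 3 fell of 82 against Control, where 32.2% of all genes were called higher, 32.0% lower and 64.2% either way. The libraries of these groups did not overlap in 35 members, against 66.1% of all genes. Small subunit members made up 19 of the rises, with none lower among 31, and large subunit members gave 14 higher and 2 lower among 46. After RPL22L1 the largest rises were RPS10 (1.34 ± 0.21), RPL17 (0.97 ± 0.16), RPL26L1 (0.95 ± 0.11) and RPS12 (0.56 ± 0.05), of which RPS10 and RPL17 share exons, and the falls were RPL7L1, RPL6 (−0.25 ± 0.05) and RPL22. Of the members called, 5 passed 1.5-fold, against 42.3% of all genes. With protein-coding genes only in the fit the split was 24 higher and 11 lower (69.7% of all genes called), and without SOR+NOB replicate 1 it was 48 and 4 (64.0% called).

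RPS12, a small subunit protein, was at 823, 804 and 781 CPM in Control, 888, 879 and 862 CPM in NOB, 885, 834 and 941 CPM in SOR, and 1093, 1264 and 1196 CPM in SOR+NOB. SOR+NOB was above all other libraries, and NOB and SOR were each above Control and overlapped each other. RPS6, the substrate of S6 kinase, was at 1041 ± 31.5 CPM in Control and 1148 ± 20.5 CPM in SOR+NOB (SD, n = 3), a rise of 0.14 ± 0.05 (edgeR adjusted p = 0.0143), while NOB and SOR gave 0.03 ± 0.05 and 0.06 ± 0.05 without a call. RPS4X, encoded on the X chromosome, rose by 0.14 ± 0.04, 0.27 ± 0.04 and 0.27 ± 0.04 (adjusted p = 0.0195, 4.5e-05 and 1.5e-05).

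The P stalk, where RPLP0 holds RPLP1 and RPLP2 and, beside RPL12, forms the landing site of the elongation factors, gave positive values for all 4 genes against Control, with medians of 0.19, 0.11 and 0.35 on the log2 scale. Of these 4, 2 were called higher in NOB, 1 in SOR and 3 in SOR+NOB, where 18.9%, 21.7% and 32.2% of all genes were. With SOR+NOB replicate 1 left out, RPL12 and RPLP1 were also called higher in NOB, and RPLP0 and RPL12 in SOR. RPLP2 was at 464, 473 and 459 CPM in Control, 537, 536 and 532 CPM in NOB, 506, 431 and 480.2 CPM in SOR, and 613, 713 and 673 CPM in SOR+NOB. NOB was above Control, SOR overlapped it, and SOR+NOB was above all. RPLP2 rose by 0.20 ± 0.06 in NOB (edgeR adjusted p = 0.00883) and by 0.52 ± 0.06 in SOR+NOB (adjusted p = 8.66e-08). RPLP0 was highest in NOB, at 2166 ± 43.0 CPM against 1861 ± 29.6 CPM in Control (SD, n = 3), a rise of 0.22 ± 0.04 (adjusted p = 0.000448), and gave 0.09 ± 0.04 in SOR+NOB (adjusted p = 0.0891), so the members of the stalk did not keep 1 ratio.

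RPL5 and RPL11, which travel with the ribosomal RNA of the central protuberance and bind MDM2, had small values. RPL5 was lower in NOB by 0.14 ± 0.05 (log2, SE, edgeR adjusted p = 0.0396), a call lost in 8 of 24 alternatives, and gave −0.09 ± 0.05 in SOR+NOB (adjusted p = 0.138). Without SOR+NOB replicate 1, RPL5 gave −0.16 ± 0.04 there and was called lower. RPL11 gave −0.02 ± 0.11, 0.13 ± 0.11 and −0.00 ± 0.11, and in SOR+NOB its libraries were at 465, 715 and 607 CPM, the lowest again replicate 1. Without that library RPL11 gave 0.14 ± 0.05 in SOR+NOB and 0.13 ± 0.05 in SOR, both called higher. Of the 6 members at the nascent peptide tunnel and its exit (RPL4, RPL17, RPL19, RPL23A, RPL31 and RPL35), 2 rose in SOR+NOB against Control, RPL17 and RPL35 (0.53 ± 0.09, adjusted p = 4.26e-05), the latter at 377, 537 and 487 CPM against 315 to 331 CPM in Control. Of all genes, 32.2% were called higher in SOR+NOB against Control. RPL8 and RPL41, a catalytic side protein and the smallest member, gave no call. Without SOR+NOB replicate 1, RPL19 (0.21 ± 0.04) and RPL8 (0.32 ± 0.04) were called higher in SOR+NOB against Control.

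Adding nobiletin to sorafenib raised 23 members and lowered 12 of 82 in SOR+NOB against SOR, where 31.4% of all genes were called higher, 31.6% lower and 63.0% either way. The groups did not overlap in 21 members (63.3% of all genes), and 5 called members passed 1.5-fold (41.2% of all genes). RPL22L1 (1.90 ± 0.10), RPS10 (1.32 ± 0.21), RPS26 (0.83 ± 0.07), RPL26L1 (0.66 ± 0.11) and RPLP2 (0.50 ± 0.06) led the rises. RPL22, RPL7L1, RPL6 (−0.32 ± 0.05), RPL14 (−0.29 ± 0.06) and RPL3 led the falls that did not overlap. Without SOR+NOB replicate 1, 37 were higher (63.1% of all genes called) and the median of the members went from 0.03 to 0.10. The median was −0.03 without SOR+NOB replicate 2 and −0.03 with protein-coding genes only, so the direction of the whole group is not settled here.

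Adding sorafenib to nobiletin raised 34 members and lowered 5 of 82 in SOR+NOB against NOB, where 30.3% of all genes were called higher, 30.4% lower and 60.7% either way. Here 39 members had groups without overlap (62.6% of all genes), and 4 called members passed 1.5-fold (37.8% of all genes). RPL22L1 (1.47 ± 0.10), RPS10 (1.29 ± 0.20), RPL26L1 (0.61 ± 0.11), RPS12 (0.43 ± 0.05) and RPL35 (0.41 ± 0.09) led the rises, and RPL7L1 (−0.61 ± 0.05) and RPL22 the falls. With protein-coding genes only, 23 were higher and 9 lower (66.0% of all genes called), and without SOR+NOB replicate 1 the count of higher members was 52 (61.3% called). The 2 compounds alone were compared as SOR against NOB, in which 19 members were higher and 8 lower, where 20.7% of all genes were called higher, 19.8% lower and 40.5% either way. The libraries of SOR and NOB did not overlap in 38 members, against 55.0% of all genes. RPS26 gave −0.90 ± 0.07 (edgeR adjusted p = 3.24e-10) and RPL22L1 −0.43 ± 0.11 (adjusted p = 0.00231), and RPS7 and RPS24 (0.27 ± 0.06) led the rises.

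The interaction was called for 13 members with a positive and 9 with a negative value of 82, where 25.1% of all genes were called positive, 26.9% negative and 52.0% either way. The called value passed 1.5-fold in 3 members, against 37.4% of all genes. RPL22L1 gave 1.26 ± 0.15 (edgeR adjusted p = 2.75e-07), since the rise with both compounds exceeded the sum of the single changes on the log2 scale. RPS26 gave 0.49 ± 0.10 (adjusted p = 0.000208), RPL10A 0.39 ± 0.07 (adjusted p = 3.38e-05) and RPL22 −0.68 ± 0.13 (adjusted p = 0.000244). RPL10A, a large subunit protein, was at 710.2, 698 and 689 CPM in Control, 642, 647 and 642 CPM in NOB, 656, 611 and 659 CPM in SOR, and 752, 808 and 767 CPM in SOR+NOB. NOB and SOR were below Control and SOR+NOB above it, all without overlap. With the trend on transcript length removed, 24 members had a called positive value and 8 a negative one (52.8% of all genes called), and without SOR+NOB replicate 1 these were 31 and 12 (55.1% called).

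Members with an oligopyrimidine run at a listed start and members without one gave close medians. The class without a run depends on the minimum of 8 bases and on the starts listed. It holds RPS3A and RPL36 with runs of 7, and RPL12 and RPL32 with runs of 6. In SOR+NOB against Control, 24 of 50 with a run were higher and 1 lower, with a median of 0.14, and 6 of 16 without a run were higher and 2 lower, with a median of 0.12. In NOB the medians were 0.04 and 0.02, and in SOR 0.06 and 0.09. Of 16 tested other mRNAs known for such a start, 4 were higher and 7 lower in SOR+NOB, with a median of −0.07. Of all genes, 32.2% were called higher and 32.0% lower in SOR+NOB. HNRNPA1, an RNA-binding protein, fell by 1.06 ± 0.05 there (edgeR adjusted p = 9.66e-14), and EIF3H, a subunit of an initiation factor, rose by 0.33 ± 0.07 (adjusted p = 0.000138). Among ribosomal proteins with other names, FAU, a fusion of a ubiquitin-like and a small subunit protein, rose by 0.32 ± 0.08 (adjusted p = 0.00284) and RACK1, a scaffold on the small subunit, fell by 0.21 ± 0.05 (adjusted p = 0.00121).

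The noncoding hosts of small nucleolar RNAs, whose RNAs also start with a pyrimidine run, had a larger median change than the members in NOB and SOR+NOB and a smaller one in SOR. In SOR+NOB against Control, 7 of 10 tested were higher and none lower, with a median of 1.05. Of all genes, 32.2% were called higher there and 32.0% lower. SNHG8 was at 40.7, 39.97 and 39.3 CPM in Control and 133, 149 and 135 CPM in SOR+NOB, without overlap, a rise of 1.80 ± 0.07 (log2, SE, edgeR adjusted p = 4.14e-15), and SNHG12 rose by 1.76 ± 0.09 (adjusted p = 1.97e-13). In NOB 5 were higher and none lower, with a median of 0.14, and in SOR 3 were higher and 1 lower, with a median of 0.02. The mitochondrial ribosomal proteins, a separate family, gave 46 higher and 12 lower of 74 in SOR+NOB with a median of 0.33, 23 and 8 in NOB, and 21 and 5 in SOR. Beside both lists, 18.9% of all genes were called higher and 19.2% lower in NOB, and 21.7% and 19.3% in SOR.

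Of the mTORC1 and LARP1 branch, 4 genes were higher and 6 lower of 13 in SOR+NOB against Control, 1 and 6 in NOB, and 1 and 7 in SOR. Of all genes, 64.2% were called either way in SOR+NOB, 38.2% in NOB and 41.0% in SOR. LARP1, which binds the oligopyrimidine start, fell by 0.18 ± 0.06 in NOB, 0.22 ± 0.06 in SOR and 0.87 ± 0.06 in SOR+NOB (edgeR adjusted p = 0.0142, 0.00392 and 1.99e-11), and EIF4EBP2, a repressor of the cap-binding protein, fell by 1.06 ± 0.05 in SOR+NOB (adjusted p = 1.37e-13). Of the same list, MYC, a transcription factor that drives ribosome production, rose by 1.07 ± 0.05 in SOR+NOB (edgeR adjusted p = 4.2e-14). EIF4E, the cap-binding protein, rose by 0.68 ± 0.08 there (adjusted p = 3.33e-07). In Control, NOB, SOR and SOR+NOB, the mean level of MYC was 313, 275, 186 and 655 CPM. That of EIF4EBP2 was 224, 187, 270 and 107 CPM. Both genes thus lay on opposite sides of Control in SOR and in SOR+NOB. Of 7 dedicated chaperones and importers, 3 were higher and 3 lower in SOR+NOB. PDCD2L, which binds RPS2, rose by 1.22 ± 0.16 (adjusted p = 8.82e-07), and GRWD1, a chaperone of RPL3, fell by 0.36 ± 0.07 (adjusted p = 0.000105). MDM2 and CDKN1A, which act in the surveillance of ribosome assembly, were both higher in SOR+NOB, by 0.59 ± 0.07 and 0.48 ± 0.08 (adjusted p = 1.32e-07 and 1.2e-05), and neither was called in NOB.

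The mean profile of the subunit members over the 12 libraries was compared with 12300 other genes of at least 2 CPM. The closest were COX5B, a subunit of cytochrome c oxidase (Pearson r = 0.94), DNAL4, a dynein light chain (0.92), FAU (0.89), GADD45GIP1, a component of the mitochondrial ribosome (0.88), and MRPS5, another (0.88). The 12 libraries share 4 treatments, and the profile is lowest in Control replicate 3 and highest in SOR+NOB replicate 2, so these values describe a likeness within these libraries.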

How the data were processed

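RNA of 12 HepG2 libraries was isolated with TRIzol, per the labels' protocols, which allow for either poly(A) capture or depletion of rRNA. HISAT2 2.0.5 and featureCounts 1.5.0-p3 were used with GRCh38, per the submitters' processing notes. Strand setting, treatment of reads that map more than once or overlap several genes, and filtering were not given in the sources used here. Deposited by the authors were raw counts per gene and FPKM values per gene, which divide by all exon bases of a gene (in 84 of 84 members in GENCODE 29). Their table of group means was not used.

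The counts were tested with edgeR 4.0.16 in R 4.3.3 (filterByExpr by group, 17115 genes, TMM, robust quasi-likelihood, 1 mean per group, 12 libraries, 8 residual degrees of freedom), with Benjamini-Hochberg adjustment over all genes of a comparison and a call at adjusted p under 0.05. SE is the log2 fold change divided by the square root of F. Shares were tested by exact two-sided permutation over libraries. Alternatives were RLE scaling, TMM without the members, no low-count filter, DESeq2 1.42.0, compared libraries only, a replicate block, limma 3.58.1 on log2(FPKM + 1 or 0.1) with a mean FPKM of at least 0.5 or no filter, protein-coding genes only, a length trend removed, leaving out each library and, chosen after seeing the data, removal of a GC and length trend and of the 5 members that share exons.

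The members and lists were chosen with earlier results of these data known. Named were the paralogues with their parents, a panel by role, up to 5 rises and 5 falls per comparison among called members without overlap in CPM (no such condition for the interaction), extremes of level, the smallest changes and up to 4 genes per pathway list. RPL3 in SOR against Control was chosen after its values were seen, as were the members with the largest deviation in SOR+NOB replicate 1. Some genes that these rules name are not reported here. Intervals are not given here, and precision depends on 3 libraries per group. Replicate numbers were checked for pairing and not used. The test was first run on simulated counts with known changes. Figures used matplotlib 3.10.9.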

Additional observations from a re-analysis of the deposited data

Results flagged for a closer look

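The effect of nobiletin differed between cells with and without sorafenib in 22 of 82 members, by the interaction term of edgeR's quasi-likelihood model (adjusted p under 0.05). Of all genes, 52.0% were called for this term. All values here are log2 differences of the 2 effects. Large positive values were those of RPS10 (1.26), whose mRNA lies mostly in exons of another gene, and RPL22L1 (1.26). RPS26 followed with 0.49, RPL10A with 0.39, RPS13 with 0.37 and RPS29 with 0.37. RPL38 gave 0.35, RPL35 gave 0.35, RPL29 gave 0.30, RPLP2 gave 0.29 and RPS12 gave 0.29, and RPL37A gave 0.28 and RPL32 gave 0.20. Negative values were −0.68 for RPL22, −0.37 for RPL14, −0.35 for RPS3, −0.34 for RPL7L1, −0.25 for RPL3, −0.25 for RPL7A, −0.22 for RPSA, −0.22 for RPLP0 and −0.19 for RPL6. RPS29 was not called without SOR+NOB replicate 1, and RPL35 and RPL7A were not called in 11 and 10 of 23 alternatives.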

How the results depend on the processing

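No fold change of a named member reversed its direction with a call at an adjusted p under 0.05. The mean share in SOR did change sides, from 5.41% against 5.47% in Control over all counts to 7.50% against 7.19% without the 50 most abundant other genes. With only the compared libraries, NOB against Control gave 28 higher and 18 lower members and SOR against NOB 33 higher. limma on FPKM without a filter gave 2 lower in NOB and 10 higher in SOR, and 12 higher and 4 lower in SOR against NOB. SOR+NOB against Control had 5 lower members under RLE scaling, 5 without a filter, 6 with DESeq2, 11 with protein-coding genes only and 7 with the GC and length trend removed, which also gave 14 lower members in NOB. SOR+NOB against NOB had 9 lower with protein-coding genes only. The interaction had 24 positive calls with the length trend removed, and 27 with GC and length removed, where its median was 0.12. The cause was not tested. The share of the members was 6.11%, 6.68%, 6.20% and 6.74% in Control, NOB, SOR and SOR+NOB over protein-coding nuclear genes. In the same order of groups it was 7.19%, 7.47%, 7.50% and 7.76% without the 50 most abundant other genes. With pseudogene counts added it was 5.71%, 6.14%, 5.65% and 6.41%. Leaving out each library in turn gave 7 to 24 higher and 1 to 11 lower members in NOB and 10 to 35 higher in SOR. In SOR+NOB against Control it gave 24 to 48 higher and 2 to 10 lower. It gave 18 to 37 higher with a median of −0.026 to 0.10 in SOR+NOB against SOR, 24 to 52 higher and 3 to 12 lower in SOR+NOB against NOB, and 11 to 28 higher and 3 to 9 lower in SOR against NOB. The interaction had 11 to 31 positive and 7 to 15 negative calls and a median of −0.0084 to 0.11. The upper counts of higher members came without SOR+NOB replicate 1. Among single genes named, 468 of 4178 recomputed values lost their call and kept their direction, most often RPLP1, RPS15A and RPS16 in SOR+NOB against NOB. Libraries of the same number did not deviate together (median r −0.01 over 18 pairs, highest 0.04), so the numbers do not pair them, and with a replicate block NOB against Control gave 11 higher and 4 lower members. Low counts limit RPL3L, RPS10 and RPL36A.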
